A study of Mus musculus with 14 samples.

Results

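The unfolded protein and integrated stress response was followed through 34 genes in the epididymal fat pad of male mice. The genes were taken by name as chaperones of the endoplasmic reticulum (ER), genes of ER-associated degradation, stress sensors with their targets, and translocon subunits. All 34 were measured, among 19937 genes on the arrays. Their levels were not part of the rule that chose them, but the list was drawn up with earlier results of these data known. RNA of 14 animals was hybridised to Affymetrix whole-transcript arrays, 1 animal each by the labels, which call replicates biological. Of these, 4 were EKO mice on Western diet and 4 were EKO mice on normal diet, while 3 were WT mice on Western diet and 3 were WT mice on normal diet. The strain of all groups was C57BL6/J, and the labels tie EKO to apolipoprotein E. The Western diet, which the labels also call HFD, held 42% anhydrous milk fat. Each diet (ND is the normal one) was given for 24 weeks from 8 weeks of age. The fat pad was taken whole, so a gene's value sums over adipocytes, macrophages, vessel cells and others, and fewer cells of a type cannot be told apart from less RNA per cell.

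The ER folds secreted and membrane proteins. When unfolded protein gathers there, the sensors IRE1 (gene Ern1), PERK (Eif2ak3) and ATF6 (Atf6) act: IRE1 splices the mRNA of Xbp1, ATF6 is cut to release a transcription factor, and PERK phosphorylates the initiation factor eIF2-alpha. Spliced XBP1 and ATF6 switch on chaperones and degradation genes, while eIF2-alpha phosphorylation lowers translation in general and raises that of ATF4, whose targets include CHOP (Ddit3), Trib3, Asns and Chac1. Since other kinases, among them the amino acid sensor GCN2, feed into the same ATF4 step, that arm is called the integrated stress response. In fat tissue the response has been studied in obesity, and secretory cells such as plasma cells carry a large ER. The arrays measured total mRNA per gene: the splicing of Xbp1, the cutting of ATF6, phosphorylation and protein levels were not measured.

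Promoter sequences of the members are shown for the elements through which ATF6, XBP1 and ATF4 are known to act. Whether these elements have a part in the values below was not tested. RefSeq (GRCm38.p6) windows from 250 bases before to 50 bases after the annotated start were at hand for 30 of the 34 members, and for none of Derl1, Manf, Atf6 and Hyou1. The ER stress response element (ERSE), bound by ATF6 with the factor NF-Y, was searched on both strands as CCAAT and CCACG with any 9 bases between. It was found in 9 of 30 members, against 0.137% of all 27025 genes with a window. The matches, each written along the strand on which the element reads forward and with its fixed letters in capitals, were as follows.
Hspa5: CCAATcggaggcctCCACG
Calr: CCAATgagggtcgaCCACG
Derl3: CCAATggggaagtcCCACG
Hsp90b1: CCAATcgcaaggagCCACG
Hsp90b1: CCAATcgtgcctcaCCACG
Canx: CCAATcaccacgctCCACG
Pdia6: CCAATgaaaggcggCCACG
Dnajc3: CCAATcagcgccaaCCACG
Creld2: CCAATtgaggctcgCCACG
Syvn1: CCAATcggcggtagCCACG

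The Hsp90b1 promoter held a pair of matches. The site of Hspa5 lay at positions -65 to -47 from the start, that of Derl3 at -156 to -138 on the opposite strand, and that of Syvn1, the nearest to its start, at -44 to -26. The related ERSE-II, searched as ATTGG and CCACG with any 1 base between, was found in Herpud1 (-52 to -42) and Dnajb11 (8 to 18), against 0.0444% of all genes with a window. Its letters share CCACG with the first element.
Herpud1: ATTGGgCCACG
Dnajb11: ATTGGcCCACG

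The C/EBP-ATF response element (CARE), bound by ATF4 dimers, was searched as TGATGNAA. It was found in 4 of 30 members, of which Herpud1 also held ERSE-II, against 4.51% of all genes with a window.
Chac1: TGATGcAA
Trib3: TGATGtAA
Asns: TGATGaAA
Herpud1: TGATGcAA

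The XBP1 element UPRE, searched as TGACGTGG, was in none of the 30 members and in 0.714% of all genes with a window. In all, 14 of the 30 members held at least 1 of the 4 motifs. A match is a stretch of letters, not a measured binding site, and a window without one says only that these letters are not in it. The members were taken by name as genes of this response, and the elements are those known for it. The shares in members and in all genes are therefore no test of the list.

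**Figure D1:**
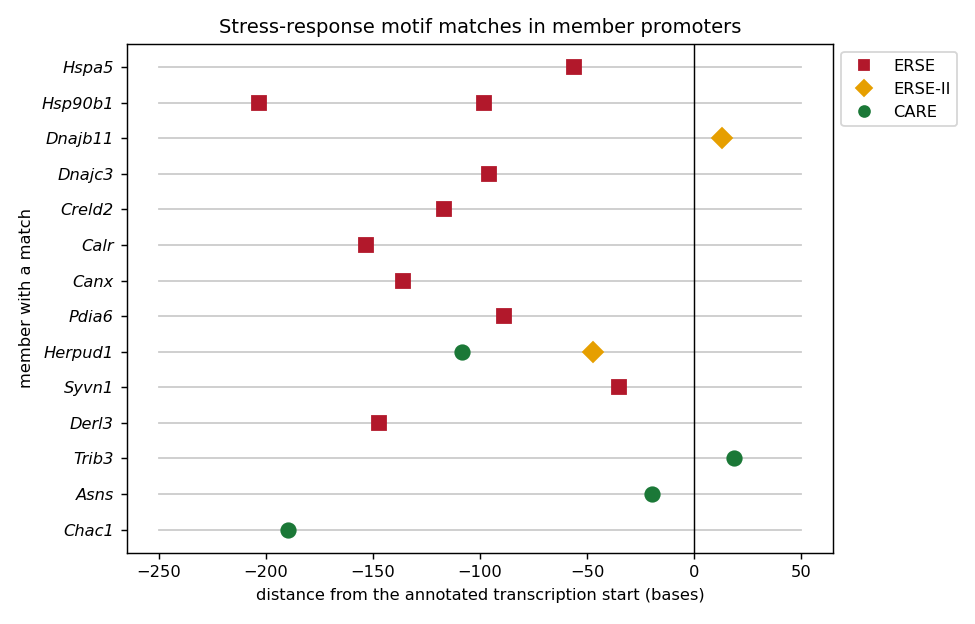
Positions of motif matches in the promoter windows of the 14 members that held any. The x axis is the distance from the annotated transcription start in bases, each grey line is 1 window, and symbols mark the centre of a match: all ERSE matches lie before the start, and those of Dnajb11 (ERSE-II) and Trib3 (CARE) after it.

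The 250 bases before the start are printed for 4 members on whose values the results turn, 5' to 3' along the gene's strand, with motif letters in capitals. Hspa5 lies on the plus strand (chr2:34771840-34772089) and Derl3 on the plus strand (chr10:75893148-75893397), while Sdf2l1 (chr16:17132384-17132633) and Asns (chr6:7693210-7693459) lie on the minus strand, all in GRCm38.p6.
Hspa5: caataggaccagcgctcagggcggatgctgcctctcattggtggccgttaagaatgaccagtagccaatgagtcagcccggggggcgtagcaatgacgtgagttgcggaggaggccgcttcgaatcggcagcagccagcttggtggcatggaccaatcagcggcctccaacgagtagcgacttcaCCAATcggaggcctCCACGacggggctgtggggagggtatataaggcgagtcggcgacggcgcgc
Derl3: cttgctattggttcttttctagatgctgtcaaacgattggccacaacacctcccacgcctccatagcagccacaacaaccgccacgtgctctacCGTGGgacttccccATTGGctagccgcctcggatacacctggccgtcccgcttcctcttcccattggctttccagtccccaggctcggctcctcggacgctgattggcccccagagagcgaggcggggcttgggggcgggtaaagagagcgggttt
Sdf2l1: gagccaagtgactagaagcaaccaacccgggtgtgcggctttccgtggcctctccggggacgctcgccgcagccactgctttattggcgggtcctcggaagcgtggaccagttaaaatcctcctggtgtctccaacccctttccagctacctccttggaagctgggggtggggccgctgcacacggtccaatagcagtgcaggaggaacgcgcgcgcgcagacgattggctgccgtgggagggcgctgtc
Asns: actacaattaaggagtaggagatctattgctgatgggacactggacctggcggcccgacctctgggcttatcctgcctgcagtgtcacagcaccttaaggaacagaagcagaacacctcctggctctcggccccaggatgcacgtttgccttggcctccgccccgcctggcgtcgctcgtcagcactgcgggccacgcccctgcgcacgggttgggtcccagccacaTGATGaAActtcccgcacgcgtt

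Hspa5 and Derl3 carry an ERSE, Asns carries a CARE close to its start, and Sdf2l1, the chaperone gene with the largest differences, held none of the 4 motifs in its window.

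Levels are log2 values from the authors' RMA table, and effects are log2 fold changes ± standard error (SE) from limma with p-values adjusted over 19937 genes. A gene passed at an adjusted p under 0.05, two-sided. Apoe lay between 9.46 and 10.3 in the 8 EKO arrays and between 13.1 and 13.6 in the 6 WT arrays, so that genotype labels and Apoe level matched in every array. Adipocyte markers were bright in all groups and none of the 7 lay at the level of the 1204 olfactory and vomeronasal receptor rows, taken as background. Of 4 epididymis markers measured, 2 (Adam7 and Spink13) lay at that level and the others above it. All 34 members lay above the highest background level (6.84) in every array, with values between 7.74 and 12.7. Background set 5 arrays (6.75 to 6.84) apart from 9 (6.29 to 6.56): EKO on Western diet replicates 1 and 3, EKO on normal diet replicate 2, WT on Western diet replicate 1 and WT on normal diet replicate 1. With the groups in the model, 28 of 34 members (82.4%) were lower in these 5 arrays, by a median of -0.17, against 52.3% of all genes and a median of -0.02. The members that passed this test numbered 12 (35.3%), all lower, while 43.0% of all genes passed, 22.3% lower. Each group holds arrays of both sets, and each result that passed was repeated with the background set as a block and once more on the 9 arrays of lower background alone. The number of arrays limits the precision.

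**Figure D2:**
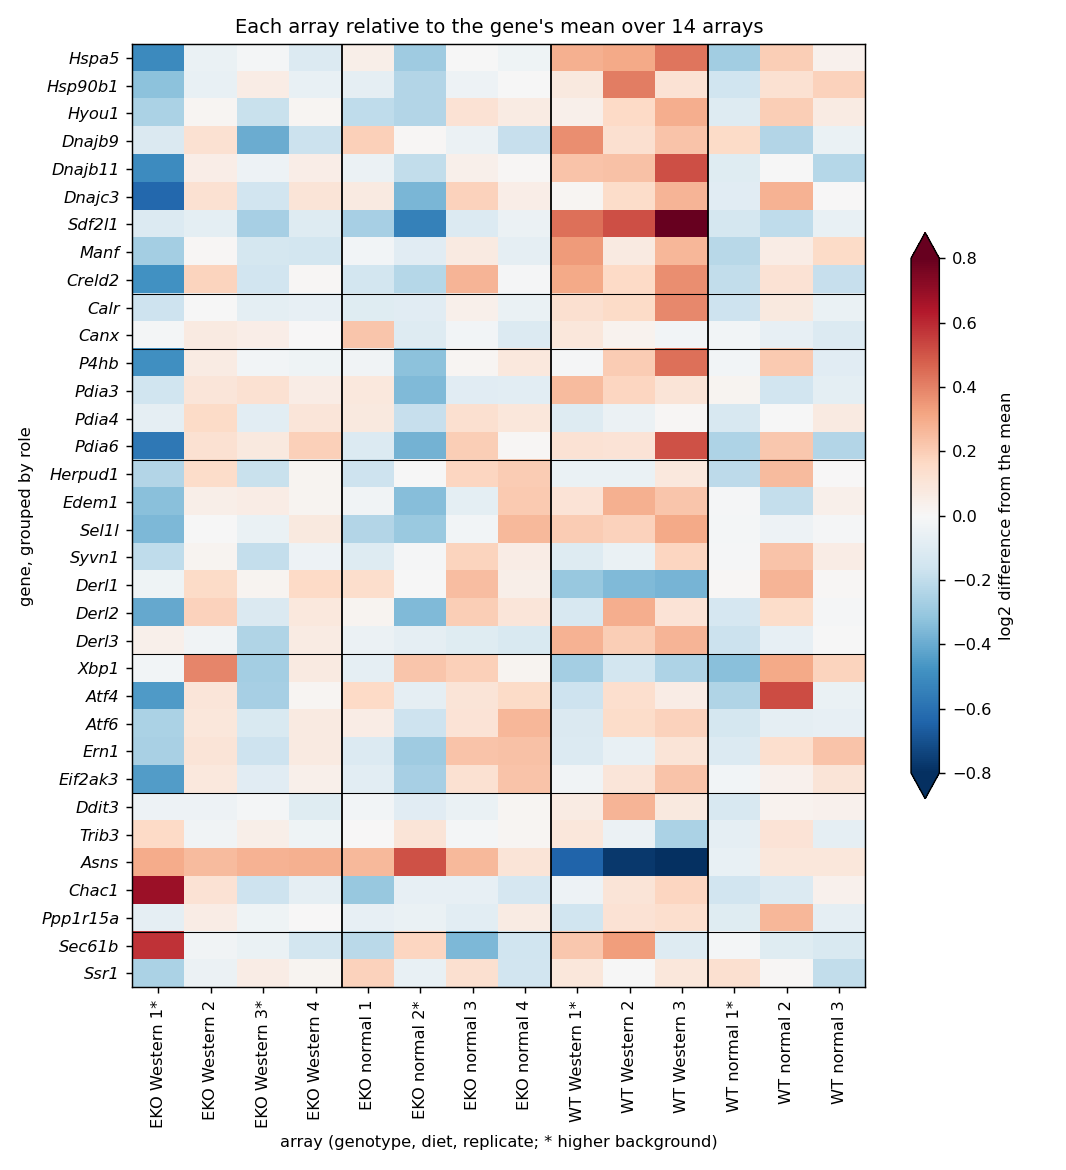
Level of each of the 34 members (rows, parted by role) in each of the 14 arrays (columns), as the log2 difference from the gene's mean over all arrays; red is higher, blue lower, and colours saturate at 0.8 either way. The 3 WT arrays on Western diet stand out as red for most chaperones and blue for Asns and Derl1, and EKO on Western diet replicate 1 is blue in many rows.

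Within groups the members tended to be high or low in the same arrays. EKO on Western diet replicate 1 was the lowest array of its group for 24 of 34 members, EKO on normal diet replicate 2 for 21, WT on Western diet replicate 1 for 21 and WT on normal diet replicate 1 for 24, and all 4 are arrays of higher background. The fifth such array, EKO on Western diet replicate 3, was the lowest of its group for 6 members and the highest for 6. The mean over the 34 members ran from 10.16 to 10.42 in EKO on Western diet, from 10.21 to 10.41 in EKO on normal diet, from 10.39 to 10.50 in Western-diet WT and from 10.25 to 10.43 in normal-diet WT. These ranges overlap between neighbouring groups, and the differences below lie in particular genes.

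In WT mice the Western diet raised the chaperone gene Sdf2l1 and the degradation gene Derl3 and lowered the asparagine synthetase gene Asns and the degradation gene Derl1. These 4 of 34 members (11.8%) passed, against 5.49% of all genes (3.19% higher and 2.3% lower). The other 30 did not, including every sensor and all of the markers Hspa5, Xbp1, Atf4, Ddit3 and Trib3. The members are bright genes, and 32 of them remained when the dimmest 50% of all genes were dropped. In that fit 9.38% of these 32 passed, against 8.92% of the 9968 genes left, so the shares were close. The effect was above 0 in 24 of 34 members (70.6%; 44.2% of all genes) with a median of 0.15 (all genes -0.02). For 10 members all 3 WT arrays on Western diet lay above all 3 on normal diet (29.4%; 8.77% of all genes), and for 2 all lay below (11.3% of all genes). Calls among the members and among all genes both grew under some alternatives. They were 4 higher and 2 lower with the background set as a block (10.1% of all genes passed), 3 higher and 2 lower with quantile normalization (8.70% of all genes), and 12 higher and 2 lower with array weights (26.2% of all genes).

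In EKO mice none of the 34 members passed between Western and normal diet (limma), and 0 had an unadjusted p under 0.05. Of all genes 0% passed, with 883 of 19937 at an unadjusted p under 0.05. For no member did the diet groups of EKO mice stay apart, against 2.56% of all genes. The 3 members with the smallest p were Chac1 (0.28 ± 0.15), Atf4 (-0.24 ± 0.15) and Sec61b (0.23 ± 0.15), each with an adjusted p of 0.946 by limma. The direction of the list differed between settings: 10 of 34 members lay above 0 in the deposited values and with median centring, 17 with quantile normalization, 18 with the background set as a block and 21 in the arrays of lower background.

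On Western diet, EKO mice had more Asns and Derl1 mRNA than WT mice and less Sdf2l1 and Hspa5 mRNA. Again 4 of 34 members (11.8%) passed, against 5.69% of all genes (1.64% higher and 4.05% lower). Of the 34 members 28 lay below 0 (8448 of all 19937 genes), with a median of -0.17 (all genes 0.03). Of these 28, 13 had an unadjusted p under 0.05, against 2292 of all genes lower at that p. Without the dimmest 50% of genes, 26 of the 32 members left lay below 0, with a median of -0.17. Of the 9968 genes left 5675 lay below 0, with a median of -0.04. In that fit 15.6% of the members left and 10.1% of the genes left passed. In 12 members all 4 EKO arrays lay below all 3 WT arrays (35.3%; 8.71% of all genes), and in 2 all lay above (5.88%; 7.93% of all genes). Lower calls were 6 with the background set as a block (6.52% of all genes lower), 5 with median centring (4.64%), 4 with quantile normalization (5.27%) and 13 with array weights (16.9%), beside 2 higher calls in each case. This comparison and the diet comparison in WT share the 3 WT arrays on Western diet, so that a high or low value in those arrays enters both with opposite sign.

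On normal diet no member differed between EKO and WT by limma, with 1 member at an unadjusted p under 0.05, while 0.00502% of all genes passed (226 at an unadjusted p under 0.05). The smallest p were those of Asns (0.24 ± 0.10), Atf6 (0.16 ± 0.12) and Hsp90b1 (-0.14 ± 0.12), each with an adjusted p of 1 by limma. Asns was also the member whose groups did not overlap (1 of 34; 1.72% of all genes). The interaction, the diet effect in EKO minus that in WT, passed for Asns alone among the 34 members (2.94%; 0.482% of all genes).

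**Figure D3:**
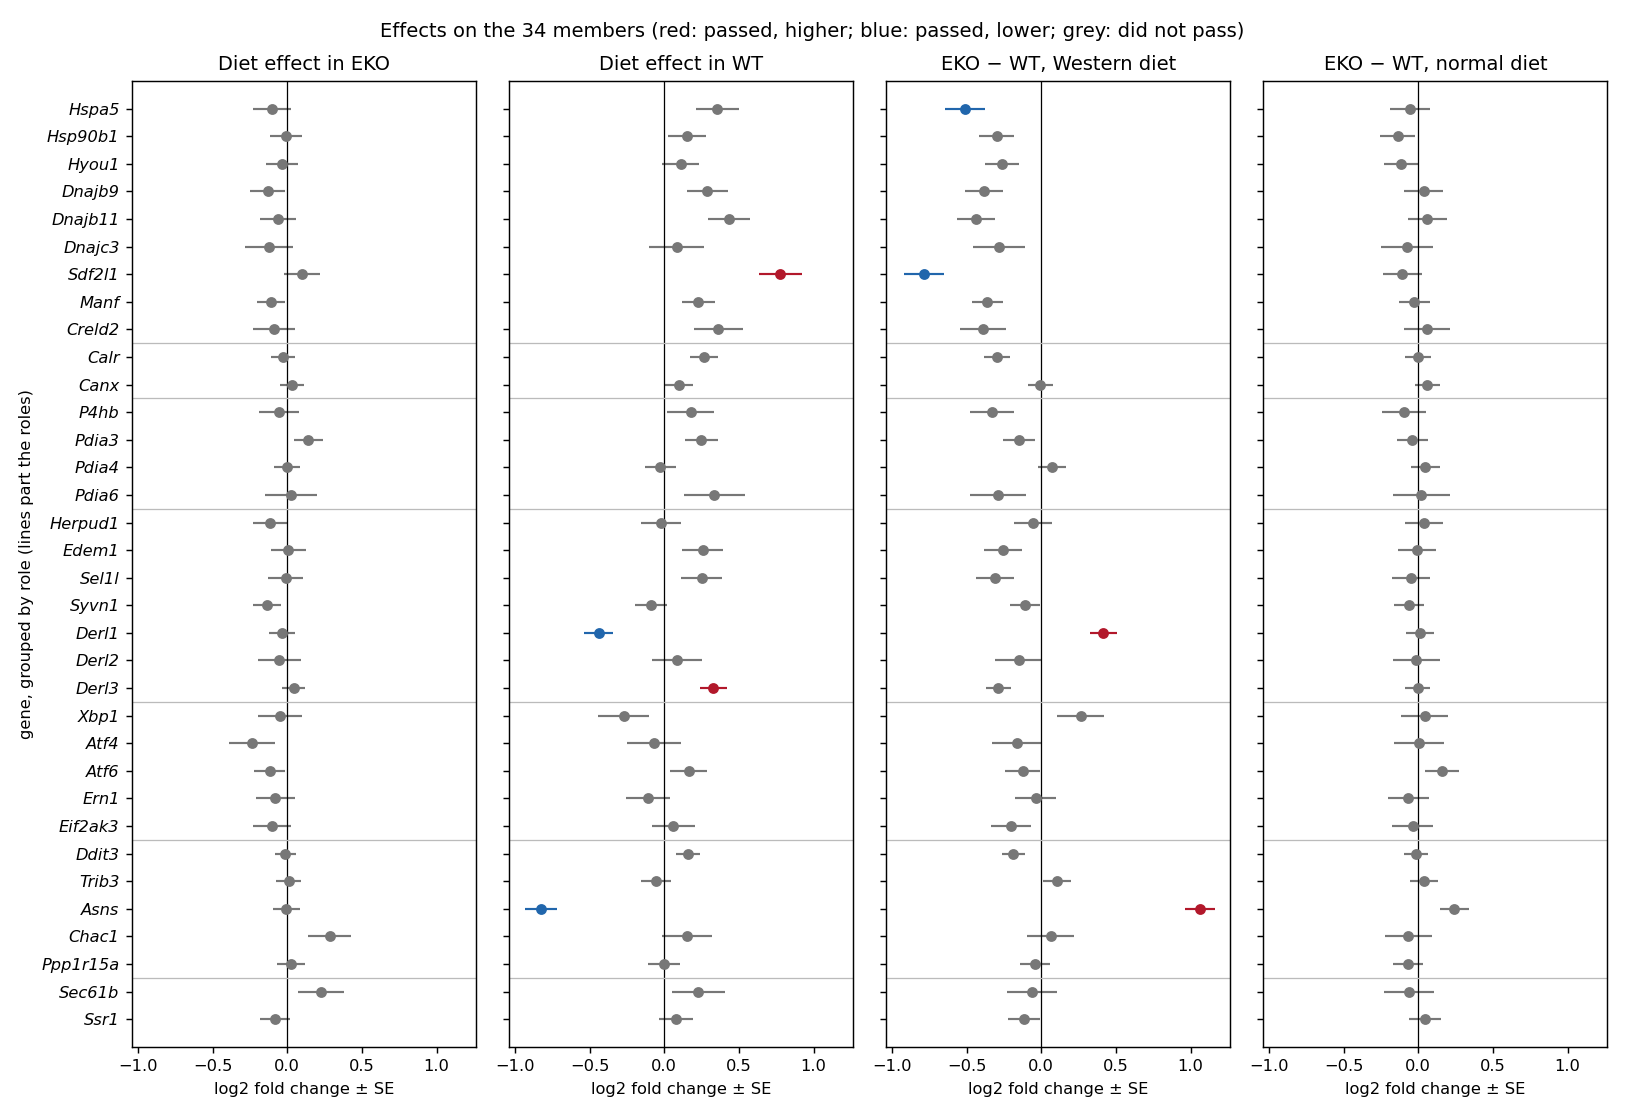
Log2 fold change ± SE of each of the 34 members in 4 comparisons, on a common x axis, with genes grouped by role and lines between the roles. Red and blue points passed (higher or lower) and grey did not: 0 points are coloured for diet in EKO and for genotype on normal diet, and 4 each for diet in WT and for EKO minus WT on Western diet.

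Chaperones of the Hsp70 and Hsp90 systems lay on 1 side of 0 in each of 2 comparisons. All 9 lay above 0 for diet in WT (44.2% of all genes), with a median of 0.29, and 1 passed (3.19% of all genes passed higher). All 9 lay below 0 for EKO against WT on Western diet, with a median of -0.38 (8448 of 19937 genes, or 5675 of 9968 without the dimmest 50%). Of these, 2 passed (4.05% of all genes passed lower) and 8 had an unadjusted p under 0.05 (2292 of all genes were lower at that p). For diet in EKO the median was -0.09, with 8 of 9 below 0 (9543 of 19937 genes). Between genotypes on normal diet the median was -0.05, and none passed in either comparison. Most lists of other pathway genes, read further below, leaned to the same sides in the first 2 comparisons. Of 22 other translocon, signal peptidase and glycosylation genes, 21 lay above 0 and 20 below 0, respectively. These counts were 9 and 11 for 12 cytosolic heat shock genes, but 4 and 2 for 12 mitochondrial chaperones and proteases.

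Sdf2l1 encodes a small ER protein that works in a complex with BiP and the co-chaperone ERdj3. It had 9.33, 9.36, 9.17 and 9.33 in EKO mice on Western diet, 9.17, 8.90, 9.33 and 9.39 in EKO mice on normal diet, 9.88, 9.96 and 10.41 in WT mice on Western diet, and 9.30, 9.23 and 9.38 in WT mice on normal diet. The WT arrays on Western diet were the 3 highest of all 14, and the other groups overlapped. Sdf2l1 rose with diet in WT by 0.78 ± 0.14 (1.71-fold, adjusted p = 0.00531, limma) and fell to 0.581 of the WT level in EKO on Western diet (-0.78 ± 0.13, adjusted p = 0.00354). Both calls held with the background set as a block (0.78 and -0.75), in the arrays of lower background (0.88 and -0.84) and whichever array of the groups compared was left out. The diet effect in EKO was 0.10 ± 0.12 (95% interval -0.16 to 0.36), and the interaction, -0.68 ± 0.19, did not pass (adjusted p = 0.143).

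Hspa5 encodes BiP, the main ER Hsp70 and the common marker of the response. Its values were 11.73, 12.18, 12.22 and 12.12 in EKO mice on Western diet, 12.28, 11.95, 12.23 and 12.20 in EKO mice on normal diet, 12.51, 12.54 and 12.66 in WT mice on Western diet, and 11.95, 12.43 and 12.27 in WT mice on normal diet. Here too the WT arrays on Western diet lay above every other array. On Western diet Hspa5 was lower in EKO, at 0.702 of the WT level (-0.51 ± 0.13, adjusted p = 0.0392, limma). The effect was -0.47 with the background set as a block and -0.45 in the arrays of lower background, both past the threshold. The call was lost when WT on Western diet replicate 2 or 3 or EKO on Western diet replicate 1, 2 or 4 was left out (adjusted p up to 0.2), and when only those groups were fitted (adjusted p = 0.0565). For diet in WT the effect of 0.35 ± 0.14 did not pass (adjusted p = 0.204) although the groups did not overlap; for diet in EKO it was -0.10 ± 0.12.

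The remaining chaperones did not pass in any comparison. Dnajb11 encodes ERdj3, the soluble co-chaperone of BiP, with 8.94 to 9.50 in EKO and 9.68 to 9.96 in WT on Western diet and 9.25 to 9.49 in EKO and 9.22 to 9.45 in WT on normal diet. Its diet effect in WT was 0.44 ± 0.14 (adjusted p = 0.0914, limma) and its difference between EKO and WT on Western diet -0.44 ± 0.13 (adjusted p = 0.0664). Manf, a secreted ER stress-inducible factor that binds BiP, gave 0.23 ± 0.11 and -0.36 ± 0.10 (adjusted p = 0.323 and 0.0551) in these comparisons. Creld2, an ER stress-inducible protein, gave 0.36 ± 0.16 and -0.39 ± 0.15, and Dnajb9 (ERdj4), a co-chaperone that holds IRE1 in check, gave 0.29 ± 0.14 and -0.38 ± 0.13. Smaller effects were those of Hsp90b1 (GRP94, the ER Hsp90), with 0.15 ± 0.13 and -0.30 ± 0.12, of the nucleotide exchange factor gene Hyou1, with 0.11 ± 0.12 and -0.26 ± 0.11, and of the co-chaperone gene Dnajc3 (p58IPK), with 0.08 ± 0.18 and -0.28 ± 0.17. In WT on Western diet Dnajb11 and Creld2 did not overlap WT on normal diet, and Dnajb11, Manf, Dnajb9, Hsp90b1 and Hyou1 did not overlap EKO on Western diet.

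Lectin chaperones hold glycoproteins while they fold. Calr, calreticulin, had 12.15 to 12.31 in EKO and 12.44 to 12.70 in WT on Western diet, against 12.21 to 12.36 in EKO and 12.15 to 12.39 in WT on normal diet, so that WT on Western diet lay above the rest. Its effects of 0.27 ± 0.09 for diet in WT and -0.30 ± 0.09 for EKO against WT on Western diet had adjusted p of 0.129 and 0.0633 by limma. Canx, the membrane-bound calnexin, gave 0.10 ± 0.09 and -0.01 ± 0.09.

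None of the 4 protein disulfide isomerase genes passed. Pdia3 (ERp57, the partner of the lectin chaperones) gave 0.25 ± 0.11 for diet in WT, without overlap of the groups, and -0.15 ± 0.11 for EKO against WT on Western diet. Pdia6 gave 0.34 ± 0.20 and -0.29 ± 0.19, and P4hb (PDI itself) 0.18 ± 0.16 and -0.33 ± 0.15. Pdia4 (ERp72) stood apart from these with -0.03 ± 0.10 and 0.07 ± 0.10. It has 2 probe sets, of which the dimmer lay at the level of the background rows.

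Degradation genes of the ER did not move as 1 group. ER-associated degradation draws misfolded proteins through the membrane to the proteasome, and the derlins Derl1, Derl2 and Derl3 are related membrane proteins of that route. Derl1 had 11.57, 11.76, 11.63 and 11.77 in EKO mice on Western diet, 11.75, 11.61, 11.86 and 11.66 in EKO mice on normal diet, 11.31, 11.25 and 11.24 in WT mice on Western diet, and 11.62, 11.88 and 11.62 in WT mice on normal diet. The 3 WT arrays on Western diet were below all other arrays, with a range of less than 0.1. Derl1 fell by 0.44 ± 0.10 with diet in WT (adjusted p = 0.0169, limma) and was 1.33-fold higher in EKO than in WT on Western diet (0.42 ± 0.09, adjusted p = 0.0164). With the background set as a block the effects were -0.44 and 0.43, in the arrays of lower background -0.50 and 0.52, all past the threshold. The diet call was lost without WT on normal diet replicate 2 or WT on Western diet replicate 2 or 3 (adjusted p up to 0.0908) and with only those groups in the fit (0.0757), and the genotype call without WT on Western diet replicate 2 or 3 or EKO on Western diet replicate 4 (up to 0.0889).

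Derl3, a derlin known to be induced by ER stress, ran the other way. It had 8.03, 7.95, 7.74 and 8.05 in EKO mice on Western diet, 7.94, 7.91, 7.88 and 7.86 in EKO mice on normal diet, 8.26, 8.18 and 8.26 in WT mice on Western diet, and 7.81, 7.92 and 7.98 in WT mice on normal diet. WT on Western diet was again above every other array. Derl3 rose by 0.33 ± 0.09 with diet in WT (1.26-fold, adjusted p = 0.0476, limma), a call that was lost whichever of the 6 arrays was left out (adjusted p between 0.0847 and 0.17) and in the arrays of lower background (0.27, adjusted p = 0.0826). EKO against WT on Western diet gave -0.29 ± 0.08 (adjusted p = 0.0605). Derl2 gave 0.09 ± 0.17 for diet in WT and -0.15 ± 0.16 for EKO against WT on Western diet, with overlapping groups.

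The other 4 degradation genes did not pass. Sel1l and Syvn1 encode the adaptor and the ubiquitin ligase of the HRD1 complex, Edem1 a lectin that hands over misfolded glycoproteins, and Herpud1 a stress-inducible organiser of the complex. In the diet comparison in WT Edem1 gave 0.26 ± 0.14 and Sel1l 0.25 ± 0.14, both without overlap of the groups, and against WT on Western diet EKO gave -0.26 ± 0.13 and -0.31 ± 0.13, again without overlap. Syvn1 (-0.09 ± 0.11 and -0.11 ± 0.10) and Herpud1 (-0.02 ± 0.14 and -0.05 ± 0.13) had overlapping groups in these comparisons.

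**Figure D4:**
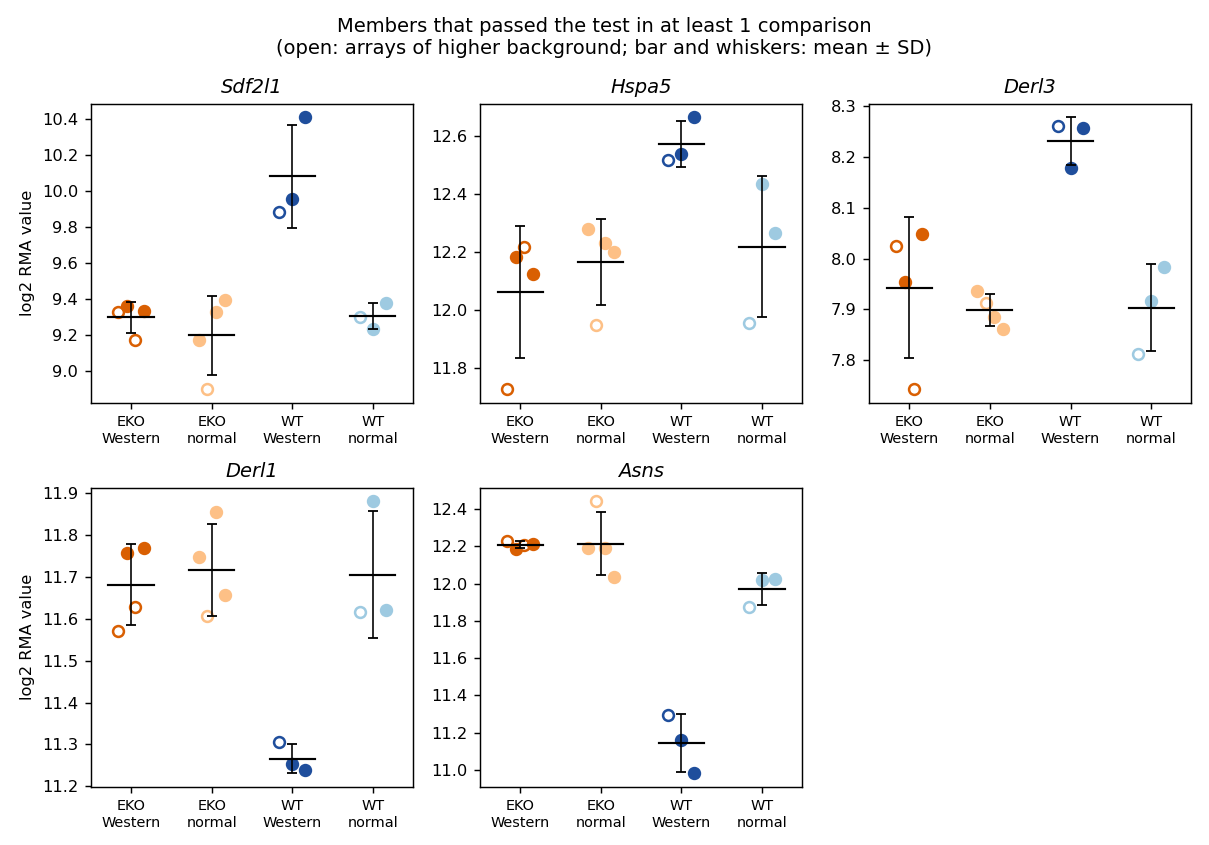
Level (y axis, log2 RMA value) of the 5 members that passed in at least 1 comparison, in the 4 groups (x axis); each point is 1 array, open points are arrays of higher background, and the bar and whiskers give the mean ± SD. In each panel the 3 WT arrays on Western diet lie outside the range of the other 11, above it for Sdf2l1, Hspa5 and Derl3 and below it for Derl1 and Asns.

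None of the 5 sensor and transcription factor genes passed in any of the 5 tests. Xbp1 had 12.26, 12.68, 12.01 and 12.35 in EKO mice on Western diet, 12.21, 12.51, 12.48 and 12.31 in EKO mice on normal diet, 12.01, 12.14 and 12.04 in WT mice on Western diet, and 11.95, 12.59 and 12.46 in WT mice on normal diet. EKO on normal diet lay above WT on Western diet, and the groups overlapped within each diet and each genotype. The effect of diet in WT was -0.27 ± 0.17 (95% interval -0.63 to 0.09), on the side of 0 opposite to that of the chaperones. EKO against WT on Western diet gave 0.26 ± 0.16 (interval -0.07 to 0.60). Atf4 had 8.52, 9.07, 8.71 and 8.99 in EKO mice on Western diet, 9.13, 8.90, 9.08 and 9.13 in EKO mice on normal diet, 8.81, 9.10 and 9.03 in WT mice on Western diet, and 8.73, 9.50 and 8.92 in WT mice on normal diet. Its groups overlapped in every comparison, and its diet effects were -0.24 ± 0.15 in EKO and -0.07 ± 0.18 in WT (intervals -0.57 to 0.09 and -0.45 to 0.31). For the 3 sensors the diet effects in WT were 0.16 ± 0.12 for Atf6, -0.11 ± 0.15 for Ern1 and 0.06 ± 0.14 for Eif2ak3, and the differences between EKO and WT on Western diet were -0.12 ± 0.12, -0.04 ± 0.14 and -0.20 ± 0.14.

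Among the genes downstream of ATF4 and CHOP, Asns was the member with the largest differences of the 34 for diet in WT and for genotype on either diet. It encodes asparagine synthetase, which makes asparagine from aspartate and glutamine and is switched on by ATF4 when amino acids are short. Its values were 12.23, 12.18, 12.21 and 12.21 in EKO mice on Western diet, 12.19, 12.44, 12.19 and 12.03 in EKO mice on normal diet, 11.29, 11.16 and 10.98 in WT mice on Western diet, and 11.87, 12.02 and 12.02 in WT mice on normal diet. All 3 WT arrays on Western diet lay below all others, and every EKO array, on either diet, lay above every WT array. With diet in WT Asns fell to 0.564 of its level (-0.83 ± 0.11, adjusted p = 0.000628, limma). On Western diet it was 2.09-fold higher in EKO than in WT (1.06 ± 0.10, adjusted p = 4.62e-05). In EKO diet gave -0.01 ± 0.09 (95% interval -0.20 to 0.19), and the interaction passed (0.82 ± 0.14, adjusted p = 0.0178).

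With the background set as a block the 3 Asns effects were -0.83, 1.05 and 0.80, and in the arrays of lower background -0.95, 1.13 and 1.01, all past the threshold; in the arrays of higher background, where most groups hold 1 array and no test was made, the differences were -0.58, 0.92 and 0.35. Diet in WT and genotype on Western diet passed whichever array of the groups compared was left out (adjusted p up to 0.00499 and 0.000436). The interaction call was lost without WT on normal diet replicate 2 or 3, WT on Western diet replicate 2 or 3 or EKO on Western diet replicate 4 (adjusted p up to 0.0671).

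The other ATF4 and CHOP genes did not share this pattern. Ddit3, which encodes the factor CHOP, had 8.67, 8.67, 8.69 and 8.61 in EKO mice on Western diet, 8.69, 8.62, 8.65 and 8.73 in EKO mice on normal diet, 8.77, 8.98 and 8.79 in WT mice on Western diet, and 8.58, 8.74 and 8.74 in WT mice on normal diet. WT on Western diet lay above the other groups by a small step, with effects of 0.16 ± 0.08 for diet in WT (adjusted p = 0.374, limma) and -0.19 ± 0.08 for EKO against WT on Western diet (adjusted p = 0.198). Trib3, a pseudokinase that binds AKT, had 8.72, 8.53, 8.61 and 8.53 in EKO mice on Western diet, 8.57, 8.66, 8.54 and 8.58 in EKO mice on normal diet, 8.65, 8.52 and 8.31 in WT mice on Western diet, and 8.49, 8.67 and 8.49 in WT mice on normal diet. The groups overlapped throughout, with -0.06 ± 0.10 for diet in WT and 0.10 ± 0.09 for EKO against WT on Western diet. Chac1, which breaks down glutathione, gave 0.28 ± 0.15 for diet in EKO, where replicate 1 on Western diet (9.98) lay above the other 7 EKO arrays, and 0.16 ± 0.17 for diet in WT. Ppp1r15a (GADD34), which restores eIF2-alpha, gave 0.02 ± 0.09 for diet in EKO and 0.00 ± 0.11 for diet in WT.

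**Figure D5:**
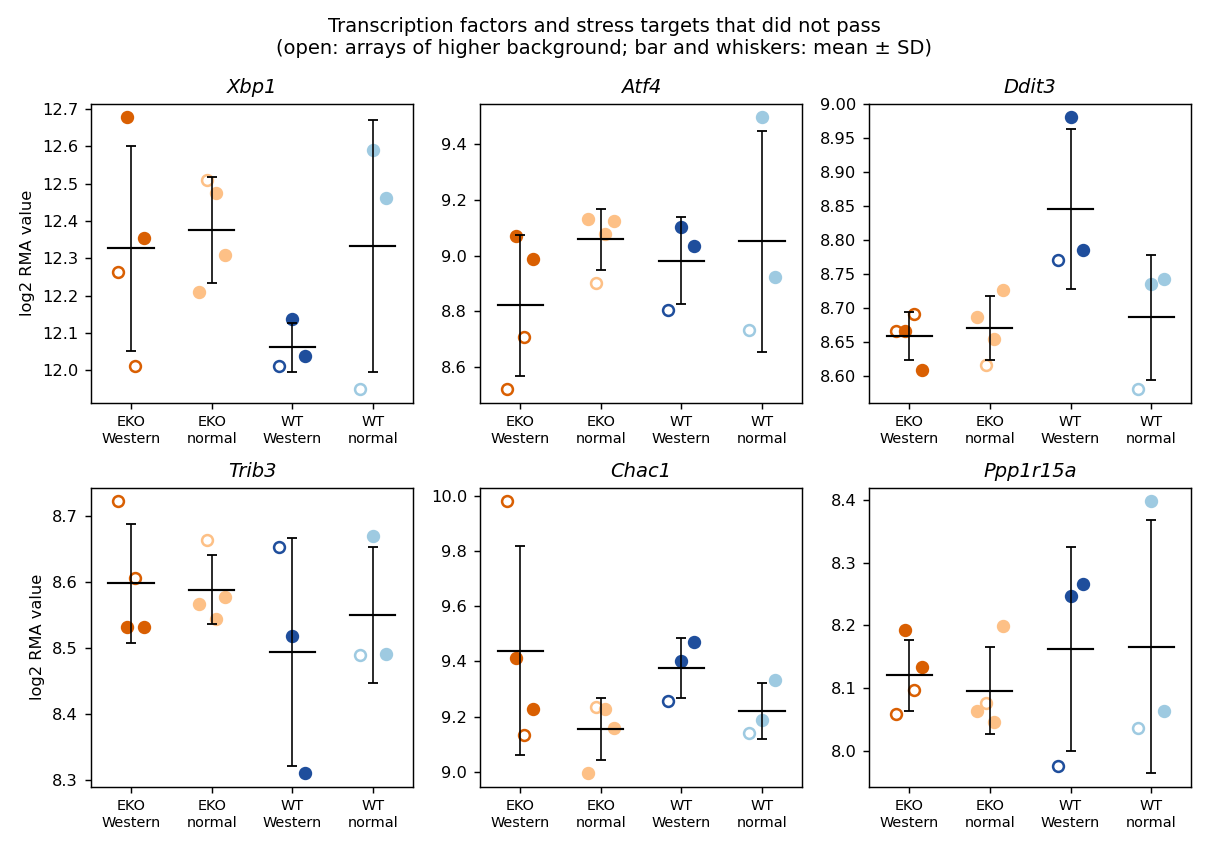
Level (y axis, log2 RMA value) of Xbp1, Atf4 and 4 stress targets, none of which passed, in the 4 groups (x axis); points are single arrays, open for higher background, with mean ± SD. Groups of the same diet or the same genotype overlap in every panel except Ddit3, where the 3 WT arrays on Western diet, from 8.77, lie above the other 11.

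Translocon subunits, which carry new chains into the ER, did not pass. Sec61b gave 0.23 ± 0.15 for diet in EKO, 0.23 ± 0.18 for diet in WT and -0.06 ± 0.17 for EKO against WT on Western diet. It has 3 probe sets, and the dimmer 2 gave differences of -0.03 and -0.08 for diet in WT, so that its sets disagreed in sign. Ssr1, a subunit of the translocon-associated complex, gave 0.08 ± 0.12 for diet in WT and -0.11 ± 0.11 for EKO against WT on Western diet.

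Further genes of the pathway were read from 8 lists of 164 genes that do not include the members, of which 154 were measured. In the diet comparison in WT 5 rose and 2 fell (4.55%, against 5.49% of all genes), with 107 of 154 above 0 and a median of 0.09. The signal peptidase subunit gene Sec11c (0.62 ± 0.16) and the signal recognition receptor subunit gene Srprb (0.40 ± 0.11) rose, as did Wfs1 (0.56 ± 0.15), which encodes the ER membrane protein wolframin, and the cytosolic Hsp110 gene Hsph1 (0.82 ± 0.21). Among 26 other ATF4 targets Atf3, a stress-induced transcription factor, rose by 1.23 ± 0.23 (adjusted p = 0.00655, limma) and Gpt2, the mitochondrial alanine transaminase, fell by 1.04 ± 0.14 (adjusted p = 0.000843). Hspa1a, a cytosolic Hsp70, fell by 0.52 ± 0.13. None of 26 other folding and oxidation genes, 23 other degradation genes, 11 aminoacyl-tRNA synthetases (many of them ATF4 targets) and 12 mitochondrial chaperones and proteases passed.

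For EKO against WT on Western diet 1 of the 154 was higher and 8 were lower (5.84%, against 5.69% of all genes), with 39 above 0 and a median of -0.15. Gpt2 was higher by 0.51 ± 0.13. Atf3 (-1.44 ± 0.22, adjusted p = 0.00173, limma), the lipoprotein receptor gene Vldlr (-0.75 ± 0.15), the proline synthesis gene Aldh18a1 (-0.58 ± 0.12) and the amino acid transporter gene Slc7a5 (-0.41 ± 0.11) were lower among the ATF4 targets. So were the calcium-binding ER protein gene Calu (-0.71 ± 0.15), the translocon channel gene Sec61a1 (-0.33 ± 0.08), Wfs1 (-0.67 ± 0.14) and the ER-bound transcription factor gene Creb3l1 (-0.60 ± 0.16). Asns and Gpt2 were thus higher, and the other 4 ATF4 targets that passed lower, in EKO. For diet in EKO, genotype on normal diet and the interaction none of the 154 passed (8, 3 and 28 at an unadjusted p under 0.05), and the smallest p for diet in EKO were those of Gpt2 (-0.54 ± 0.12, adjusted p = 0.516) and Slc7a5 (-0.33 ± 0.10, adjusted p = 0.77).

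Markers of other cells differed between the same groups as the members. Of 8 macrophage markers 5 rose with diet in WT, led by the integrin gene Itgax (2.15 ± 0.17), and 6 were lower in EKO than in WT on Western diet (Itgax -2.02 ± 0.16). Their mean level was 9.76 to 10.27 in EKO on Western diet, 9.35 to 10.35 in EKO on normal diet, 10.82 to 11.26 in WT on Western diet and 9.64 to 9.92 in WT on normal diet. All 4 markers of dividing cells rose with diet in WT and were lower in EKO on Western diet, with mean levels of 7.39 to 7.77 in EKO on Western diet, 7.45 to 7.57 in EKO on normal diet, 8.13 to 9.06 in WT on Western diet and 7.38 to 7.52 in WT on normal diet. Adipocyte markers ran the other way, 3 of 7 lower with diet in WT and 3 higher in EKO on Western diet, with 13.24 to 13.35 in EKO on Western diet, 13.23 to 13.38 in EKO on normal diet, at most 13.05 in WT on Western diet and 13.20 to 13.36 in WT on normal diet. No marker of these 3 lists lay at the background level. The part of these cells in the differences of Sdf2l1, Hspa5, Derl3, Derl1 and Asns was not tested.

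Plasma and B cell markers, which bear on secretory genes, had mean levels of 7.91 to 8.02 in EKO on Western diet, 8.03 to 8.19 in EKO on normal diet, 8.14 to 8.58 in WT on Western diet and 7.90 to 8.24 in WT on normal diet. None of the 8 passed with diet in WT, and Cd79a lay at the background level. Jchain (-1.56 ± 0.38) and Sdc1 (-0.43 ± 0.11) were lower in EKO than in WT on Western diet. Among 6 fibroblast markers Lum (1.13 ± 0.28) rose with diet in WT, and Lum (-1.54 ± 0.26), Col3a1 (-0.63 ± 0.17) and Col1a1 (-0.62 ± 0.10) were lower in EKO on Western diet, with list means of 10.67 to 10.84 in EKO on Western diet, 10.63 to 11.11 in EKO on normal diet, 11.10 to 11.40 in WT on Western diet and 10.82 to 11.32 in WT on normal diet. Of 5 mesothelial markers 4 fell with diet in WT and 1, Upk3b, was higher in EKO on Western diet (0.75 ± 0.17), with list means of 9.78 to 10.14 in EKO on Western diet, 9.51 to 10.26 in EKO on normal diet, 9.38 to 9.47 in WT on Western diet and 10.27 to 10.70 in WT on normal diet. None of the endothelial and epididymal markers passed in either comparison. The part of these lists in the members' differences was not tested.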

How the data were processed

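Per the labels, total RNA of the epididymal fat pad was amplified, biotin-labelled and hybridised to Affymetrix arrays. The authors deposited log2 values per probe set, which the submitters' processing notes credit to RMA; its settings are not stated there. RMA usually includes a step that equalises the arrays' probe distributions, which can remove a shift common to most genes. The deposited values were not fully equal: array medians ran from 7.92 (WT on Western diet replicate 3) to 8.10 (EKO on Western diet replicate 1). Of 34760 rows, 21640 have 1 symbol in the platform annotation, 1321 several and 11799 none; 21553 matched a GRCm38.p6 gene by Entrez ID. The brightest set was kept for 954 genes with several. No value was filtered or rescaled.

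A model with 1 mean per group was fitted to all 14 arrays (limma 3.58.1, R 4.3.3, lmFit and eBayes, 10 residual degrees of freedom), with 5 contrasts and Benjamini-Hochberg adjustment over 19937 genes. The members, gene lists and motifs were chosen with earlier results of these data known. Values are given per array for members that passed and for Hspa5, Xbp1, Atf4, Ddit3 and Trib3; where none passed, the 3 smallest p are given; from other lists, up to 4 genes, with Aldh18a1, Slc7a5 and Col1a1 added after their values were seen. Arrays of 1 group correlated at 0.980 to 0.996. Same-numbered arrays are different animals, and their deviations correlated at -0.593 to 0.644, so numbers were not taken as pairs. Alternatives were the background split, scalings, priors, array weights, filters, probe set means, fewer samples, a replicate block and leaving out each array. Figures were drawn with matplotlib 3.10.9.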

Additional observations from a re-analysis of the deposited data

Results flagged for a closer look

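In 6 of 68 sets of 4 EKO arrays (34 members, 2 diets), 1 array lay far from the other 3. For a single set chance gives about 1 in 20. The sets share the same arrays, in which members tended to be high or low together, so their number is no test against chance. EKO on Western diet replicate 1 was low for Dnajb11 (8.94, the others 9.41 to 9.50), Pdia6 (9.41, the others 10.07 to 10.18) and Edem1 (11.39, the others 11.74 to 11.78), and high for Sec61b (9.91, the others 9.19 to 9.31). EKO on Western diet replicate 3 was low for Sdf2l1 (9.17, the others 9.33 to 9.36), and EKO on normal diet replicate 2 was low for Pdia4 (11.44, the others 11.71 to 11.76). All 3 are arrays of higher background, whose part in these values was not tested.

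The diet effect on Asns differed between genotypes, by 0.82 ± 0.14 (EKO minus WT, adjusted p = 0.0178, limma).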

How the results depend on the processing

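For diet in WT the main counts were 2 members higher and 2 lower. Higher calls were 4 with the background set as a block or the background level as a covariate (5.33% and 5.43% of all genes higher, against 3.19%). They were 12 with array weights (13.3%) and 1 without the dimmest 50% of genes (4.66%), where Derl3 is not tested. They were also 1 with only the groups compared (1.46%) or with the replicate block (3.88%). Lower calls were 1 with only the groups compared (0.938% of all genes lower, against 2.3%). Leaving out 1 array gave 1 higher and between 1 and 2 lower calls.

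For EKO against WT on Western diet (2 higher, 2 lower), lower calls were 6 with the background set as a block or the covariate (6.52% and 5.98% of all genes lower, against 4.05%). They were 5 with median centring (4.64%) and 4 with quantile normalization or the replicate block (5.27% and 6.66%). They were 13 with array weights (16.9%) and 1 with only the groups compared (3.23%). Leaving out 1 array gave between 1 and 2 higher and between 1 and 3 lower calls. The interaction (1 higher, 0 lower) had 2 higher and 2 lower calls with array weights (11.7% of all genes passed), and between 0 and 1 of each when 1 array was left out. Diet in EKO and genotype on normal diet kept 0 calls throughout. The cause of these changes was not tested, apart from the filter that drops Derl3.

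The replicate block, on numbers that name different animals, lost Derl3 for diet in WT (adjusted p = 0.0682) and no other member call. Effects were followed singly under each alternative for 13 members (38 effects), not for the rest of the 34. Among these 5 calls were lost (Derl3 for diet in WT under 3 alternatives, Derl1 for diet in WT and Hspa5 on Western diet with only the groups compared) and 3 gained under the alternatives other than leaving out 1 array (array weights gave Hspa5 and Ddit3 for diet in WT and Ddit3 on Western diet), 22 calls were lost on leaving out 1 array, and no call changed sign.

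All members lay above the background level, groups held 3 or 4 arrays, and what limited the calls was not tested. The background split moved most members in 1 direction, and mRNA levels do not show the activity of the sensors.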
